A study of Mus musculus with 8 samples.

Results

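Ribosome biogenesis and nucleolar genes were followed in C3H10T1/2 cells, an established mesenchymal cell line of mouse embryo origin, by RNA sequencing. The treatment was sphingosine 1-phosphate (S1P), a bioactive lipid sensed by receptors on the cell surface. Cells grown with 10% serum were held without serum for 24 h, and the S1P group then received 5 µM S1P for another 24 h. The vehicle group received 0.1% fatty acid-free bovine serum albumin over the same 24 h, and the labels do not say whether albumin carried the S1P. There were 4 vehicle libraries (replicates 1 to 4) and 4 S1P libraries (replicates 5 to 8) of this 1 line, and nothing in the labels ties them to separate cultures. The p-values therefore reflect the spread among these libraries alone, which may be technical. The 44 genes followed were a list of symbols covering MYC, RNA polymerase I, the small nucleolar ribonucleoproteins (snoRNPs), processing factors of both ribosomal subunits and abundant nucleolar proteins. In the deposited table of 18306 genes 43 of them were found by symbol and Noc2l was not. All 43 passed the filter on low counts, among 11844 genes tested.

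Ribosomes are assembled mainly in the nucleolus, where RNA polymerase I transcribes a long precursor of the ribosomal RNAs. Box C/D snoRNPs methylate that precursor, box H/ACA snoRNPs convert uridines to pseudouridine, and large sets of factors cut and fold it into the small and large subunits. The transcription factor MYC is known to drive many of these genes in growing cells, and serum withdrawal is known to lower the demand for new ribosomes.

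The libraries summed to 13750303 to 13761544 counts, and 3 counts, the limit that a count of 0 allows (counting error only), corresponded to 0.213 to 0.222 CPM (read counts relative to the scaled library total). All 10 mesenchymal markers examined (among them Col1a1, Vim and Pdgfrb) were found, and their summed level was 29200 to 37700 CPM in vehicle and 27100 to 36000 CPM after S1P. Of 8 haematopoietic and 6 epithelial markers, 6 and 2 were found and summed to 0.497 to 1.92 and 1.11 to 2.83 CPM in the libraries, none of those found being at 0 in all 8. All 6 endothelial markers were found and summed to 36.5 to 76.9 CPM in vehicle and 17.4 to 44.1 CPM after S1P, mostly from Tek (54.8 ± 20.8 CPM in vehicle, SD, n = 4), whereas Pecam1 and Cdh5 stood at 0.253 and 0.0556 CPM there and Kdr was at 0 in all 4 vehicle libraries. Vehicle replicate 4 stood apart: it was the highest or the lowest of the 8 libraries for 61.5% of tested genes and held the smallest mitochondrial share of counts (2.5%, against 3.45% to 3.83%). The counts of calls, and the values it moved most, are therefore also given without it.

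Most ribosome biogenesis genes stood slightly higher after S1P, and a single one, the pseudouridine synthase gene Dkc1, passed the test. The log2 fold change (S1P minus vehicle) was positive for 34 of 43 members (79.1%) with a median of 0.14, beside 46.1% of all tested genes with a median of -0.04. Dkc1 rose and none fell in edgeR's quasi-likelihood test with Benjamini-Hochberg adjustment, and 42 did not pass. That is 2.33% of the members called higher, where 5.6% of all tested genes were higher, 2.9% lower and 8.5% changed in either direction, so the members' share is not above the background. Without vehicle replicate 1 no member was called and 27 were positive, with a median of 0.10. Of the 11926 genes tested in that fit, 489 were called higher, 309 were called lower and 5332 were positive, with a median of -0.05. With all 8 libraries, 9 members were higher in edgeR before adjustment at p under 0.05 (20.9%, beside 13.2% of tested genes) and none lower (beside 11.7%). The S1P libraries all lay above the vehicle libraries for 7 members (16.3%, beside 12% of tested genes) and below them for none (beside 7.21%). In bulk RNA, a change in the share of cycling cells and a change in the level per cell cannot be told apart, and CPM values do not show the total RNA of a cell.

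**Figure D1:**
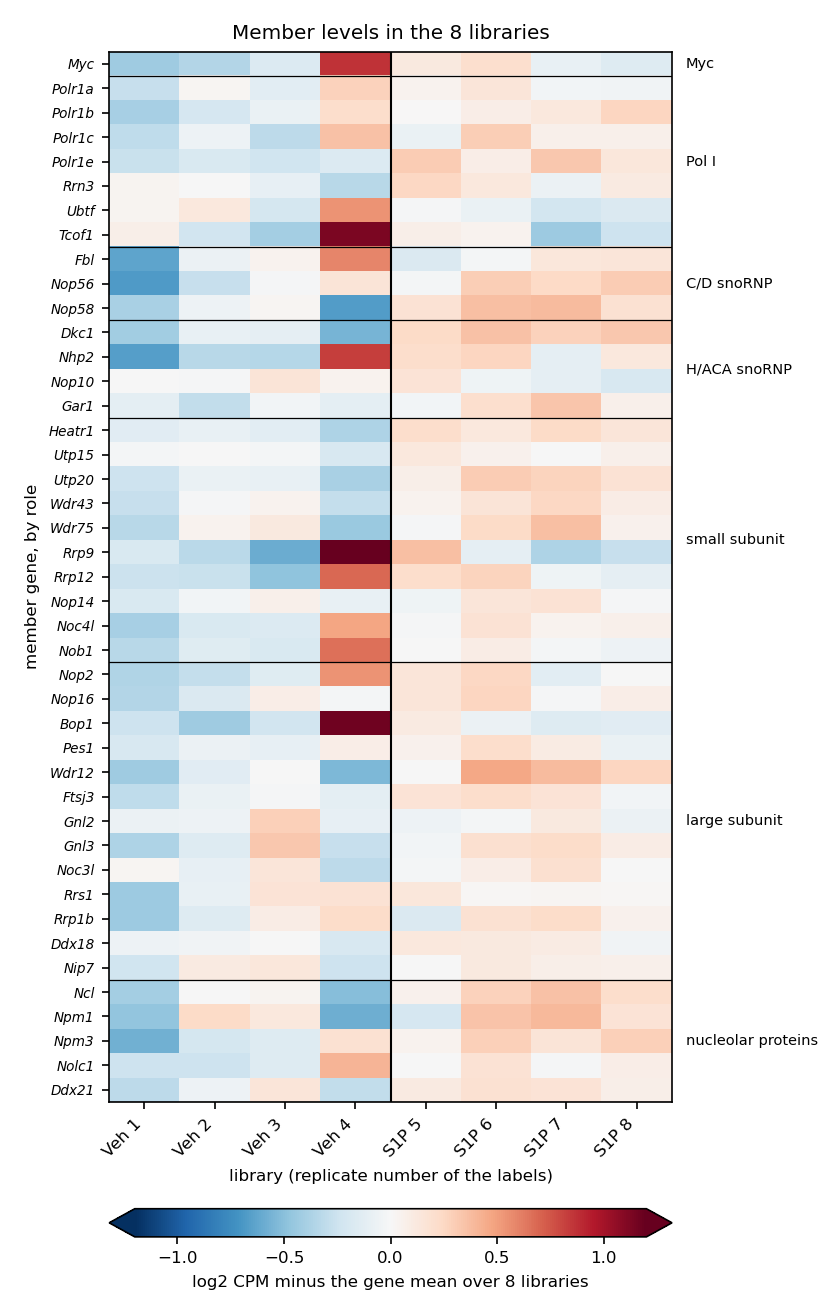
Level of each of the 43 members (rows, grouped by role) in the 8 libraries (columns), as log2 CPM minus the gene's mean over the 8 libraries, with the colour scale ending at 1.2 in each direction. Vehicle replicate 4 is the darkest column, with 15 members at their highest and 15 at their lowest there (beside 31.3% and 30.3% of all tested genes). Vehicle replicate 1 holds the lowest value of 19 of the 43 members, beside 15.6% of all tested genes.

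With vehicle replicate 4 left out, 8 members rose and more of them had positive values. The log2 fold change was then positive for 40 of 43 (93.0%), the exceptions being Ubtf, Nop10 and Gnl2, with a median of 0.24, beside 50.6% and 0.00 over 11943 tested genes. The members called higher (edgeR, Benjamini-Hochberg) were Polr1e, Nop58, Dkc1, Nhp2, Heatr1, Utp20, Npm3 and Nolc1. They made up 18.6% of the members, beside 9.49% of all tested genes higher and 6.05% lower in that fit. Other fits of all 8 libraries called 6 members higher with DESeq2 (7.09% of tested genes), 5 with a GC content offset added after the data were seen (7.89%), 8 with 1 surrogate variable (12.4%) and 1 with limma-voom (5.88%), and none lower. The 4 S1P libraries lay above the 3 remaining vehicle libraries for 17 members (39.5%, beside 16.9% of tested genes) and below them for none (beside 12.1%). The changes were small in either fit. With all 8 libraries, the 95% interval of the log2 fold change lay within a 2-fold change in both directions for 40 of 43 members (69.6% of all tested genes), and the other 3 were Tcof1, Rrp9 and Bop1.

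**Figure D2:**
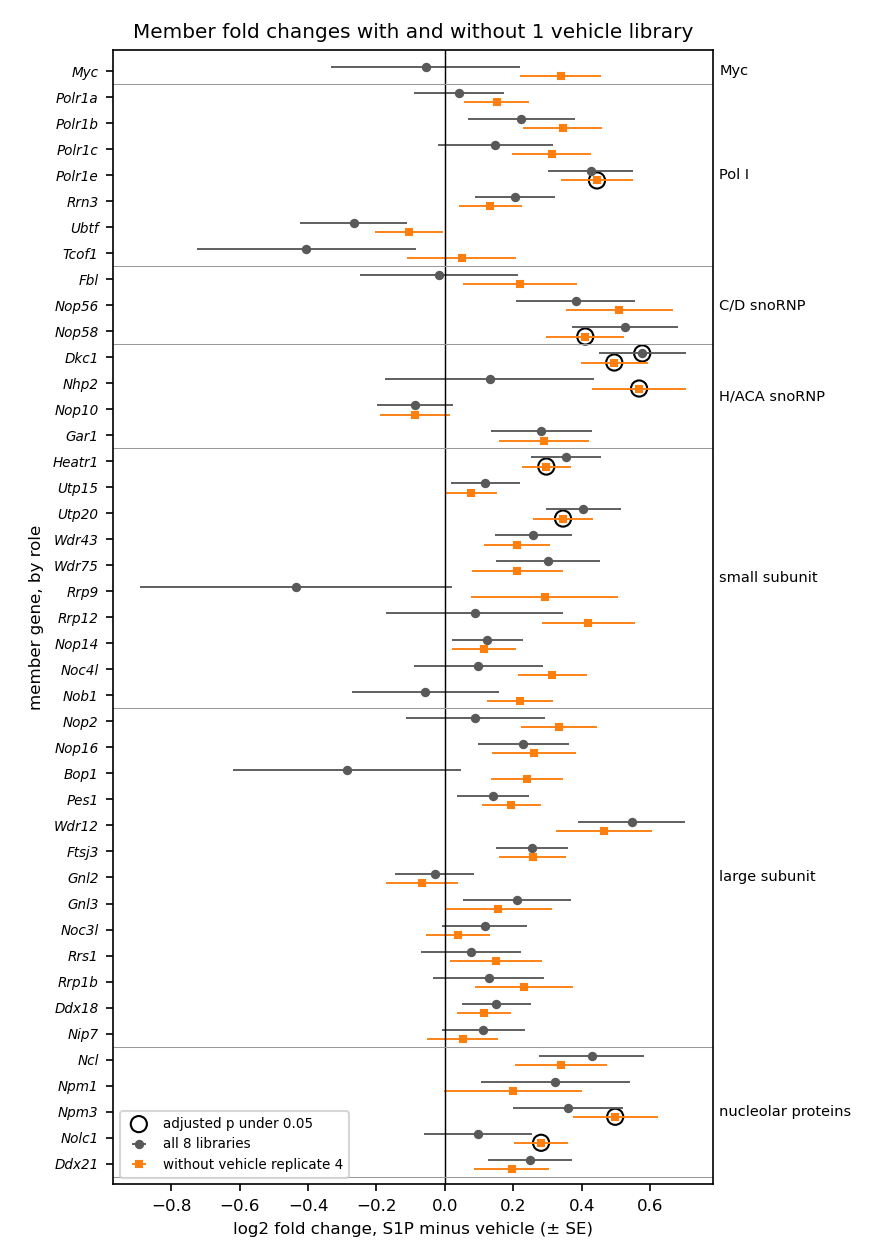
Log2 fold change (S1P minus vehicle, with SE) of the 43 members from edgeR with all 8 libraries (circles) and without vehicle replicate 4 (squares), with rings around values at an adjusted p under 0.05. With all libraries only Dkc1 is ringed, and without vehicle replicate 4 the 8 ringed members lie between 0.28 and 0.57.

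Levels in vehicle replicate 4 followed base composition, over the members and over all tested genes. Across the 43 members, its deviation from the mean of the other 3 vehicle libraries followed the GC content of their transcripts (Pearson r = 0.86 over 43 genes, which share their libraries and are not independent replicates). Over the 11634 tested genes with a GC value, r of its deviation was 0.74, so the pattern is not particular to the members. Taken the same way within each group, r among the members was -0.49, -0.74 and -0.73 in vehicle replicates 1 to 3. The mean that each of these was set against includes vehicle replicate 4, so their negative values are not independent of that library. In S1P replicates 5 to 8, r was 0.42, 0.16, -0.61 and -0.01. Over all tested genes, r was -0.28, -0.53 and -0.49 in vehicle replicates 1 to 3 and -0.31 to 0.18 in the S1P libraries. The 15 members that were highest in vehicle replicate 4 had a median GC content of 55.8% (50.7% to 58.3%), and the 15 that were lowest there had 45.2% (42.1% to 52.5%). What set vehicle replicate 4 apart was not tested.

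**Figure D3:**
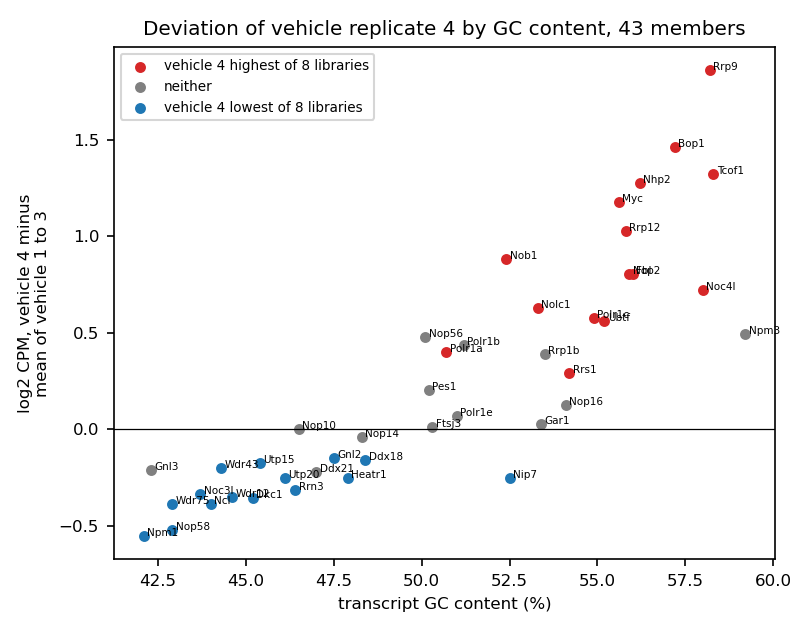
Deviation of vehicle replicate 4 from the mean of vehicle replicates 1 to 3 (log2 CPM, vertical axis) against transcript GC content (percent, horizontal axis) for the 43 members. Rrp9, Bop1 and Tcof1 lie highest, at 1.86, 1.46 and 1.32, and Npm1 and Nop58 lowest, at -0.55 and -0.52.

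Myc showed no change that this design could detect. Its level was 23.5, 24.8, 28.2 and 57.5 CPM in vehicle replicates 1 to 4 and 34.3, 36.4, 29.7 and 28.4 CPM in S1P replicates 5 to 8. Vehicle replicate 4 was the highest of the 8 libraries, and the other 3 vehicle libraries were all below the S1P libraries. The log2 fold change was -0.06 (SE 0.28, 95% interval -0.68 to 0.57, edgeR Benjamini-Hochberg adjusted p = 0.915). With that library left out it was 0.34 (SE 0.12) and did not pass (edgeR Benjamini-Hochberg adjusted p = 0.0873). Of 10 tested genes of the MYC network, which bind MAX or compete for it, none passed (edgeR, Benjamini-Hochberg). At an unadjusted p under 0.05 by edgeR, 4 were lower and none higher, beside 11.7% of all tested genes lower and 13.2% higher. Max, the dimer partner of MYC, stood at 61.8 ± 4.43 CPM in vehicle and 51.9 ± 4.05 CPM after S1P (SD, n = 4 each; edgeR Benjamini-Hochberg adjusted p = 0.175). In the fit without vehicle replicate 4, Mxd1 fell and Mxd3 rose (log2 fold change -0.61 and 1.44, edgeR Benjamini-Hochberg adjusted p = 0.0361 and 0.0307), both named after their values were seen. Of all genes tested in that fit, 6.05% were lower and 9.49% higher.

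Promoters were examined for the E-box, the sequence that MYC and MAX bind. Of the 43 members, 35 had a promoter in the RefSeq table (GRCm38.p6, 250 bases before to 50 after the start of the gene), while Bop1, Fbl, Gnl2, Myc, Npm1, Rrp12, Rrs1 and Tcof1 had none matched there. The letters CACGTG, searched on both strands, stood in 5 of these 35 members (14.3%): Nop2, Utp20, Pes1, Rrn3 and Wdr43. Of tested genes that had a promoter there, 12.1% held it, a share close to that of the members. Among 99 genes with a promoter from the wider ribosome biogenesis list described below, 20.2% held it. The related form CACGCG, on either strand, stood in 11 of 35 members (31.4%), in 32.3% of those 99 genes and in 20.4% of tested genes with a promoter. The differences between these shares were not tested. No hits of these forms overlapped in a member. Dkc1, the member that rose, held neither form in this window. The windows of Dkc1, of Utp20, the member nearest to the threshold without passing, and of Rrn3, which held 2 E-boxes, are shown 5′ to 3′ with both forms of the E-box in capitals. They lie at chrX:75095604-75095903 (plus strand), chr10:88826765-88827064 (minus strand) and chr16:13780449-13780748 (plus strand) of GRCm38.p6.
Dkc1: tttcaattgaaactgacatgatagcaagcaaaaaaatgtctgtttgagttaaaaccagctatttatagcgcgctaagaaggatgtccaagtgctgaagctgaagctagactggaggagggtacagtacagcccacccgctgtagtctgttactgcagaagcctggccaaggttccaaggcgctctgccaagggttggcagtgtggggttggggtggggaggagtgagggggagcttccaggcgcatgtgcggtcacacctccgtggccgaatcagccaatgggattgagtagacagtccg
Utp20: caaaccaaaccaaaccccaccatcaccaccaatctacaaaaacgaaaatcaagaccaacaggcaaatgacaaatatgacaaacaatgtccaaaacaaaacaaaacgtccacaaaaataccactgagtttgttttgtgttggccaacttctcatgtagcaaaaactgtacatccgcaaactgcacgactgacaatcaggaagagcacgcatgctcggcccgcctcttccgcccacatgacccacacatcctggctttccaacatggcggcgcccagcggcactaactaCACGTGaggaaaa
Rrn3: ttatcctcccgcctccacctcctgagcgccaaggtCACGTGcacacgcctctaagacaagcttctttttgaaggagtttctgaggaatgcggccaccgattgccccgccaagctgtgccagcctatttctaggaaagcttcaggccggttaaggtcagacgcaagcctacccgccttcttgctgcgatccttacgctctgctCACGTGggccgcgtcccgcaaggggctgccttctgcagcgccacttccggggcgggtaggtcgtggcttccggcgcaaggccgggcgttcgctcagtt
In Utp20 the E-box begins 37 bases after the start of the gene, and in Rrn3 the E-boxes begin at -215 and -48. A match in these letters is a description of the sequence and not a measured site.

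RNA polymerase I genes gave no call with all 8 libraries, and of 7 tested members 5 had positive and 2 negative log2 fold changes. Polr1e, a subunit of the polymerase (chromosome 4, 45031255 to 45049637 in mm9), had 14.4, 15.2, 14.6 and 15.5 CPM in vehicle replicates 1 to 4 and 21.3, 18.3, 21.6 and 19.0 CPM in S1P replicates 5 to 8. Every S1P library was above every vehicle library, and vehicle replicate 4 lay close to the other vehicle libraries. The log2 fold change was 0.43 (SE 0.12, edgeR Benjamini-Hochberg adjusted p = 0.0658), and without vehicle replicate 4 it was 0.44 and passed (edgeR Benjamini-Hochberg adjusted p = 0.0243). Its span shares 2719 bases with Fbxo10, whose log2 fold change was -0.11, so reads of the shared stretch could belong to either gene.

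Tcof1, which encodes treacle, a nucleolar cofactor of RNA polymerase I, had the lowest log2 fold change of this group, -0.41 (SE 0.32, edgeR Benjamini-Hochberg adjusted p = 0.457). Its level was 31.9, 25.9, 22.8 and 66.6 CPM in vehicle replicates 1 to 4, and 32.0, 31.2, 22.5 and 25.6 CPM in S1P replicates 5 to 8. Vehicle replicate 4 was far above the other 7 libraries, whose groups overlapped, and without it the log2 fold change was 0.05. The catalytic subunit genes Polr1a and Polr1b stood at 0.04 and 0.22 on the log2 scale, Polr1c, shared with RNA polymerase III, at 0.15, and Rrn3, the initiation factor that brings the polymerase to the promoter, at 0.20. With vehicle replicate 4 left out these 4 stood at 0.15, 0.34, 0.31 and 0.13 in that order. Ubtf, the upstream binding factor of the ribosomal DNA, stood at -0.27, and at -0.11 without that library. None of these 5 passed in either fit (edgeR, Benjamini-Hochberg).

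Among box C/D snoRNP genes, the scaffold gene Nop58 (chromosome 1, 59741653 to 59769168) stood highest after S1P. Its level was 145, 181, 192 and 119 CPM in vehicle replicates 1 to 4 and 213, 242, 246 and 215 CPM in S1P replicates 5 to 8. The groups did not overlap, with vehicle replicate 4 the lowest library, and the fold was 1.44 (log2 0.53, SE 0.16, edgeR Benjamini-Hochberg adjusted p = 0.069). Without vehicle replicate 4 the log2 fold change was 0.41 and passed (edgeR Benjamini-Hochberg adjusted p = 0.0428).

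Nop56, the partner of Nop58 in the complex, had 50.2, 66.4, 79.5 and 89.4 CPM in vehicle replicates 1 to 4 and 79.1, 98.5, 95 and 99.5 CPM in S1P replicates 5 to 8, so the groups overlapped (log2 fold change 0.38 with SE 0.17, adjusted p = 0.212 by edgeR and Benjamini-Hochberg). Fbl, the methyltransferase of the complex, had similar means of 23.7 ± 8.13 CPM in vehicle and 23.4 ± 2.43 CPM after S1P (SD, n = 4 each). The 95% interval of its log2 fold change ran from -0.54 to 0.50. Vehicle replicate 4 was the highest library at 34.5 CPM (14.8 to 23.7 in the other vehicle libraries), and the log2 fold change was 0.22 without it. A stretch of 690 bases of the Fbl transcript is 99.6% identical to a part of Tulp4, whose mean count was 948% of that of Fbl, so the Fbl count is uncertain.

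Box H/ACA snoRNP genes held the only call. Dkc1 encodes dyskerin, the pseudouridine synthase of these particles and also a part of telomerase (chromosome X, 72340993 to 72355316). It had 46.9, 58.7, 58.2 and 42.5 CPM in vehicle replicates 1 to 4 and 73.5, 79.9, 75.8 and 78.5 CPM in S1P replicates 5 to 8. All S1P libraries lay above all vehicle libraries, and it rose 1.49-fold, from 51.6 ± 8.16 to 76.9 ± 2.84 CPM (SD, n = 4 each; log2 fold change 0.58 with SE 0.13, 95% interval 0.29 to 0.86, edgeR Benjamini-Hochberg adjusted p = 0.023). The call held in 4 of 8 fits with a library removed and was lost without vehicle replicate 1 or any of the S1P replicates 6, 7 and 8 (adjusted p by edgeR and Benjamini-Hochberg 0.062, 0.0839, 0.0656 and 0.0775), with a log2 fold change of 0.50 to 0.65 over the 8. Its span shares 445 bases with Mpp1, whose log2 fold change was 0.31 (edgeR Benjamini-Hochberg adjusted p = 0.204), and which gene received shared reads is not known.

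Nhp2, another protein of the box H/ACA core, had 10.1, 12.7, 12.6 and 28.4 CPM in vehicle replicates 1 to 4 and 18.5, 19.1, 14.8 and 17.4 CPM in S1P replicates 5 to 8. Vehicle replicate 4 was again the highest library, and the remaining groups did not overlap. The log2 fold change was 0.13 with all libraries (SE 0.31, edgeR Benjamini-Hochberg adjusted p = 0.814) and 0.57 without that library, which passed (edgeR Benjamini-Hochberg adjusted p = 0.0274). Gar1 and Nop10, which complete the particle, stood at 0.28 and -0.09 on the log2 scale (edgeR Benjamini-Hochberg adjusted p = 0.268 and 0.648). Gar1 had 10.2 to 12.3 CPM in vehicle and 12.3 to 15.8 CPM after S1P.

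**Figure D4:**
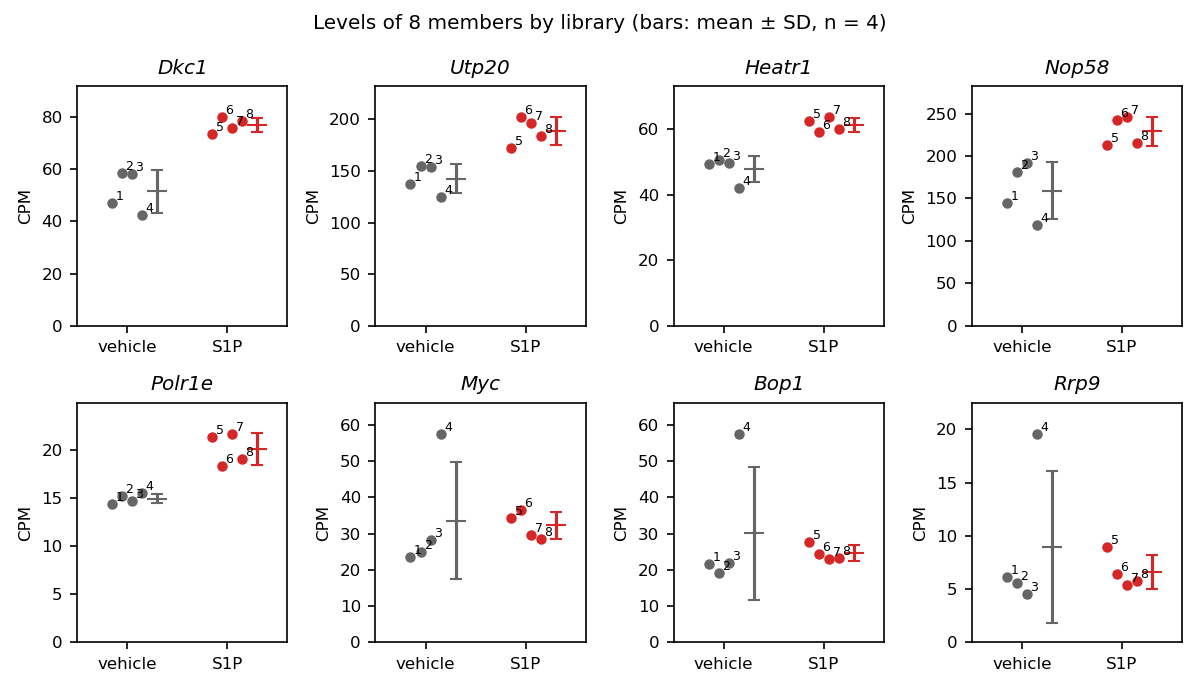
CPM of 8 members in each library (points, labelled by replicate number) with the mean and SD of each group of 4. Dkc1, Utp20, Heatr1, Nop58 and Polr1e have every S1P library above every vehicle library, while Myc, Bop1 and Rrp9 have vehicle replicate 4 far above the other 7.

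Of 10 small subunit processing genes, 8 had positive log2 fold changes and none passed with all libraries. Utp20, a large factor of the early small subunit precursor (chromosome 10, 88209152 to 88289759), had 138, 154, 154 and 125 CPM in vehicle replicates 1 to 4 and 172, 202, 197 and 184 CPM in S1P replicates 5 to 8. The groups did not overlap (log2 fold change 0.40 with SE 0.11, adjusted p = 0.0516 by edgeR and Benjamini-Hochberg), and with vehicle replicate 4 left out the value was 0.35 and passed (edgeR Benjamini-Hochberg adjusted p = 0.0308). Heatr1, a factor of the same precursor that also promotes RNA polymerase I transcription, had 42.0 to 50.8 CPM in vehicle and 59.2 to 63.7 CPM after S1P. Its log2 fold change was 0.35 (edgeR Benjamini-Hochberg adjusted p = 0.0619), and 0.30 without vehicle replicate 4, which passed (edgeR Benjamini-Hochberg adjusted p = 0.027). Utp15 was the third gene of this group without overlap, by a narrow margin, with 29.2 to 33.2 CPM in vehicle and 33.3 to 36.5 CPM after S1P (log2 fold change 0.12, edgeR Benjamini-Hochberg adjusted p = 0.492, and 0.077 without vehicle replicate 4).

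Rrp9, a protein of the U3 snoRNP, had the most negative value of all members. It stood at 6.10, 5.56, 4.58 and 19.6 CPM in vehicle replicates 1 to 4 and at 8.94, 6.46, 5.36 and 5.74 CPM in S1P replicates 5 to 8. Vehicle replicate 4 held 3.62 times the mean of the other vehicle libraries, which overlapped with the S1P libraries. The log2 fold change was -0.44 (SE 0.45, 95% interval -1.46 to 0.59, edgeR Benjamini-Hochberg adjusted p = 0.578) and 0.29 without that library. Its span shares 1387 bases with Parp3, which had a mean of 1026.6 counts per library against 107.4 for Rrp9, so its value is uncertain. Rrp12, Noc4l and Nob1, the last being the endonuclease that trims the end of the small subunit RNA, were also highest in vehicle replicate 4, and their log2 fold changes went from 0.09, 0.10 and -0.06 to 0.42, 0.31 and 0.22 without it. Wdr43, Wdr75 and Nop14 stood at 0.26, 0.30 and 0.12, and none of these 6 passed in either fit (edgeR, Benjamini-Hochberg).

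Large subunit assembly genes held no call in either fit, although 11 of 13 had positive log2 fold changes and 12 of 13 without vehicle replicate 4. The proteins of Bop1, Pes1 and Wdr12 form the PeBoW complex, and their RNAs differed in value. Wdr12 had 27.8, 34.0, 37.3 and 25.8 CPM in vehicle replicates 1 to 4 and 37.3, 51.7, 48.7 and 44.7 CPM in S1P replicates 5 to 8, with the highest vehicle and the lowest S1P library at the same level (log2 fold change 0.55 with SE 0.16, adjusted p = 0.0621 by edgeR and Benjamini-Hochberg). A stretch of 206 bases of its transcript is 95.6% identical to a part of Tmod3, which had more counts, so the Wdr12 count is uncertain. Bop1 had 21.6, 19.1, 21.9 and 57.6 CPM in vehicle replicates 1 to 4 and 27.7, 24.5, 23.0 and 23.4 CPM in S1P replicates 5 to 8. Without vehicle replicate 4 its groups did not overlap, and its log2 fold change went from -0.29 (SE 0.33, edgeR Benjamini-Hochberg adjusted p = 0.619) to 0.24 (edgeR Benjamini-Hochberg adjusted p = 0.156). Pes1 stood at 115 ± 9.28 CPM in vehicle and 127 ± 10.7 CPM after S1P (SD, n = 4 each; log2 fold change 0.14). The other 10 tested members of this group lay between -0.03 (Gnl2, a nucleolar GTPase) and 0.25 (Ftsj3, a methyltransferase), with Gnl3, which encodes nucleostemin, at 0.21, Nop2, a ribosomal RNA methyltransferase, at 0.09 and the RNA helicase Ddx18 at 0.15. Nop16, Rrp1b, Noc3l, Nip7 and Rrs1 stood at 0.23, 0.13, 0.12, 0.11 and 0.08 with all libraries. Nop2 stood at 0.33 without vehicle replicate 4.

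All 5 abundant nucleolar protein genes had positive log2 fold changes and none passed with all libraries. Ncl, which encodes nucleolin (chromosome 1, 88241094 to 88256230), had 770.0, 1017, 1042 and 714 CPM in vehicle replicates 1 to 4 and 1059, 1231, 1297 and 1183 CPM in S1P replicates 5 to 8. Its groups did not overlap (log2 fold change 0.43 with SE 0.15, adjusted p = 0.122 by edgeR and Benjamini-Hochberg). Npm1, the histone chaperone nucleophosmin, had 1019, 1658, 1546 and 939.8 CPM in vehicle replicates 1 to 4 and 1229, 1793, 1845 and 1588 CPM in S1P replicates 5 to 8, and its groups overlapped (log2 fold change 0.32 with SE 0.22, adjusted p = 0.385 by edgeR and Benjamini-Hochberg). Its log2 fold change was 0.20 without vehicle replicate 4. Per kilobase of an annotated main transcript, Npm1 was the most abundant member, at 790.2 CPM per kilobase in vehicle and 988.3 after S1P, with Ncl next at 108 and 145. The lowest values were 3.12 in vehicle (Wdr12) and 3.64 after S1P (Rrp12). These values depend on the transcript chosen, which was 10012 bases long for Wdr12 and 8202 bases long for Ncl. The places of Wdr12 and Ncl in this order are therefore uncertain. The processed copy Gm5611, 95.1% identical to Npm1 over 876 bases, had a mean count of 2.54% of that of Npm1, and how reads matching both were counted is not known.

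Npm3, a nucleophosmin relative, had 19.4, 25.1, 26.0 and 32.9 CPM in vehicle replicates 1 to 4 and 29.8, 35.3, 32.3 and 35.3 CPM in S1P replicates 5 to 8. Only vehicle replicate 4 reached the S1P range, and the log2 fold change of 0.36 (SE 0.16, edgeR Benjamini-Hochberg adjusted p = 0.205) became 0.50 and passed without it (edgeR Benjamini-Hochberg adjusted p = 0.0304). Nolc1, a snoRNP chaperone, went from 0.10 to 0.28 and passed without that library (edgeR Benjamini-Hochberg adjusted p = 0.0448). Ddx21, an RNA helicase of the nucleolus, stood at 267 ± 40.7 CPM in vehicle and 318 ± 11.6 CPM after S1P (SD, n = 4 each; log2 fold change 0.25, edgeR Benjamini-Hochberg adjusted p = 0.243).

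The 43 members together took 0.403% to 0.504% of the counts in vehicle and 0.5% to 0.591% after S1P. Vehicle replicates 1 and 4 were lowest at 0.403% and 0.421%, and vehicle replicates 2 and 3, at 0.499% and 0.504%, were close to S1P replicate 5 at 0.5%. The groups thus overlapped for all 43 members, with vehicle replicate 3 above S1P replicate 5. Leaving aside Npm1 and Ncl, the other 41 took 0.219%, 0.236%, 0.25% and 0.256% in vehicle replicates 1 to 4 and 0.268% to 0.288% after S1P. The groups did not overlap for these 41 alone. The mean log2 CPM of the 43 members, which weights each member equally, did overlap between groups. It was 5.438, 5.605, 5.661 and 5.822 in vehicle replicates 1 to 4 and 5.787, 5.886, 5.816 and 5.77 in S1P replicates 5 to 8. The summed level of 10 mitosis markers was 510.4 CPM in vehicle replicate 1, 1083 to 1241 CPM in the other vehicle libraries and 2448 to 3468 CPM after S1P. All 10 rose (edgeR, Benjamini-Hochberg; log2 fold changes of 1.35 to 2.05). Vehicle replicate 1 was lowest for both sums. S1P replicate 8 was highest for the markers, while its member share of 0.549% was below those of S1P replicates 6 and 7 (0.591% and 0.588%). The part of these proliferation markers in the member values was not tested.

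A wider list of ribosome biogenesis genes was also mostly positive. Of 123 further genes listed (polymerase I factors, processing and assembly factors, exosome and snoRNP assembly), 119 were tested, and the log2 fold change was positive for 82 (68.9%) with a median of 0.13. Exosc8, a subunit of the RNA exosome, rose and none fell (edgeR, Benjamini-Hochberg), which is 0.84% of the list called higher beside 5.6% of all tested genes. It had 16.3, 21.0, 23.95 and 20.03 CPM in vehicle replicates 1 to 4 and 30.95, 36.7, 37.3 and 37.05 CPM in S1P replicates 5 to 8 (log2 fold change 0.80 with SE 0.14, adjusted p = 0.00918 by edgeR and Benjamini-Hochberg). Next by p was Nol10, a small subunit factor, with 31.6 to 36.3 CPM in vehicle and 42.7 to 45.1 CPM after S1P, which did not pass (log2 fold change 0.38, edgeR Benjamini-Hochberg adjusted p = 0.0502). When vehicle replicate 4 was left out, 9 of the 119 rose and none fell (7.56% higher, beside 9.49% of all tested genes, so not above the background), and 82.4% were positive with a median of 0.16. The difference between this list and the members was not tested.

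Ribosomal protein genes did not share the upward values. Of 79 tested, 14 had positive (17.7%, beside 46.1% of all tested genes) and 65 negative log2 fold changes, with a median of -0.19. None passed (edgeR, Benjamini-Hochberg). At an unadjusted p under 0.05 by edgeR, 1 was lower and none higher, beside 11.7% and 13.2% of all tested genes. Without vehicle replicate 4 the median was -0.04 with 28 positive (35.4%, beside 50.6% of all tested genes), and again none passed. Vehicle replicate 4 was the highest library for 48 of the 79, beside 31.3% of all tested genes. Rpl36 showed this most, at 172 CPM there and 9.17 to 11.7 CPM in the other vehicle libraries, and its log2 fold change went from -2.10 (edgeR Benjamini-Hochberg adjusted p = 0.202) to 0.13 without that library. Rps28 stood at 127 ± 30.7 CPM in vehicle and 92.1 ± 10.9 CPM after S1P (SD, n = 4 each; log2 fold change -0.47, edgeR Benjamini-Hochberg adjusted p = 0.123), with a log2 fold change of -0.28 without vehicle replicate 4. Ribosomal protein genes have many processed copies, so their counts are uncertain to that extent.

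**Figure D5:**
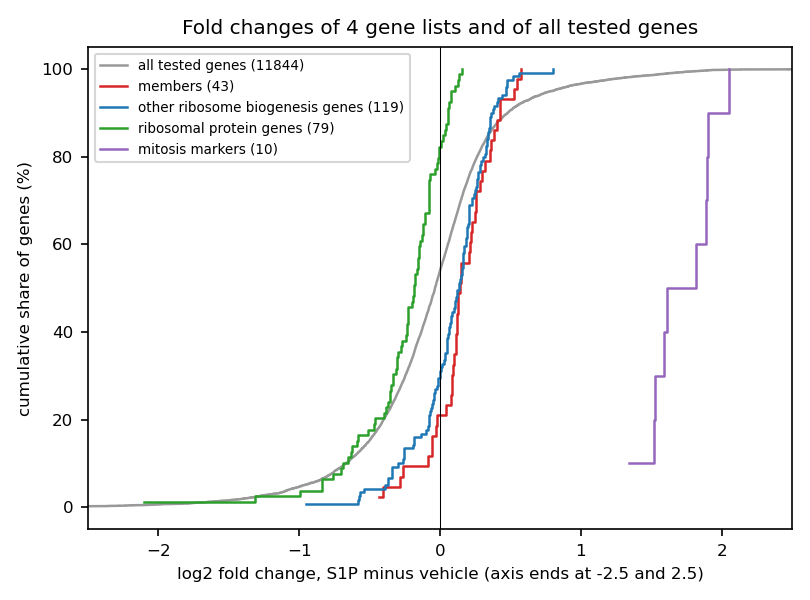
Cumulative share of genes (percent, vertical axis) by log2 fold change (S1P minus vehicle, horizontal axis) for all 11844 tested genes and 4 lists. The 43 members and the 119 other ribosome biogenesis genes lie to the right of all tested genes at their medians (0.14 and 0.13, against -0.04), the 79 ribosomal protein genes lie to the left (-0.19) and the 10 mitosis markers lie far to the right.

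Targets of p53, a factor that is stabilised when ribosome assembly is disturbed, were listed as a readout of nucleolar stress. Of 17 tested, 3 rose and none fell (17.6% higher, beside 5.6% of all tested genes; edgeR, Benjamini-Hochberg), namely the kinase gene Plk2, the ribosomal protein paralog Rps27l and the membrane protein gene Perp, with log2 fold changes of 0.86, 0.63 and 1.55, all 3 named after their values were seen. Without vehicle replicate 4, Plk2 and Rps27l passed (11.8%, beside 9.49% of all tested genes) and Perp, which averaged 0.943 CPM in vehicle, did not (log2 fold change 1.55, edgeR Benjamini-Hochberg adjusted p = 0.0501). The best-known targets Cdkn1a and Mdm2 did not pass (log2 fold change 0.10 and 0.29, edgeR Benjamini-Hochberg adjusted p = 0.883 and 0.357). Cdkn1a was high in 1 library of each group, at 264 CPM in vehicle replicate 1 and 335 CPM in S1P replicate 5, with the other 6 between 119.9 and 158 CPM.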

How the data were processed

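The authors deposited raw counts of reads for each Ensembl gene in 8 libraries, with gene symbols and mm9 coordinates. STAR 2.5.3a and mm9 are named, without their roles, per the submitters' processing notes. Which counting tool, annotation and strand setting made the counts is not given in the sources used here. Library totals differ by 0.0818%, so the depth before deposit is unknown. Columns were matched to samples by title. In R 4.3.3 with edgeR 4.0.16, genes were kept by filterByExpr (minimum count of 10), scaled by TMM and tested (S1P against vehicle) by edgeR's quasi-likelihood test (robust option), using all 8 libraries and Benjamini-Hochberg adjustment over 11844 genes and a threshold of 0.05. CPM values use the TMM factors, SEs come from the F statistic, and 95% intervals from its degrees of freedom.

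Member genes, gene lists and alternatives were chosen with earlier results of these data known. Values are given for Myc, for members past the threshold, for the 2 members of each role with the largest absolute change, for the 3 most abundant members, and for the 2 other biogenesis genes and 2 ribosomal protein genes with the smallest p; other members are listed with log2 fold changes, with levels for those chosen after their values were seen (Fbl, Nhp2, Heatr1, Utp15, Pes1). Alternatives were RLE or no composition factors, other filters, DESeq2 1.42.0, limma-voom (limma 3.58.1), no robust option, 1 surrogate variable (sva 3.50.0), left-out libraries and, added after the data were seen, a GC content offset. On simulated counts for 11876 genes, the S1P against vehicle fit recovered 16% of 1.5-fold, 46% of 2-fold, 86% of 4-fold and 100% of 8-fold changes, with 3.12% false calls. These counts were drawn independently for each gene, with no shift shared across genes such as that of vehicle replicate 4. The rates therefore do not cover the effect of such a shift. GC content and transcript lengths are from GENCODE M21, for all 43 members. The spans of 20 of 43 members overlap another gene of the table, and how shared reads were assigned is not given.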

Additional observations from a re-analysis of the deposited data

Results flagged for a closer look

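In 12 of 86 groups of 4 libraries (43 members in each group), 1 library lay far from the other 3 by Dixon's criterion, where chance gives about 1 in 20 for independent groups. In 9 of the 12 that library was vehicle replicate 4. The 86 groups share the same 8 libraries and are not independent. The same count was not made over all tested genes, of which vehicle replicate 4 was the highest or the lowest library for 61.5%. Vehicle replicate 4 was high for Myc at 57.5 CPM (others 23.5 to 28.2), Nhp2 at 28.4 (10.1 to 12.7), Rrp9 at 19.6 (4.58 to 6.10), Rrp12 at 24.0 (10.6 to 12.4), Nob1 at 34.0 (17.0 to 19.4), Bop1 at 57.6 (19.1 to 21.9) and Nolc1 at 100.2 CPM (63.4 to 67.6). It was low for Heatr1 at 42.0 CPM (49.5 to 50.8) and Utp15 at 29.2 CPM (32.8 to 33.2). Elsewhere, Gnl2 was high in vehicle replicate 3 at 130.5 CPM (100.006 to 103), Rrs1 was high in S1P replicate 5 at 39.9 CPM (36.6 to 36.8) and Ddx18 was low in S1P replicate 8 at 42.3 CPM (46.5 to 47.4).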

How the results depend on the processing

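No paired analysis was possible because the groups share no replicate numbers (vehicle 1 to 4, S1P 5 to 8). Against 1 of 43 members higher in the reported fit (beside 5.6% of tested genes), 2 were called without composition factors (beside 710 of 11844). DESeq2 called 6 (7.09% of tested genes), 1 surrogate variable 8 (12.4%) and the GC content offset 5 (7.89%). When the pair vehicle replicate 4 and S1P replicate 5 was left out, 10 were called (beside 1178 of 11875 tested genes). With 1 library left out the members called ranged from 0 (without vehicle replicate 1 or S1P replicate 6, 7 or 8) to 8 (without vehicle replicate 4). Over all tested genes, the fits with 0 members called gave 333 to 489 higher of 11926 to 11955. The fit without vehicle replicate 4 called 9.49% higher. No fit called a member lower. Dkc1 kept a positive value in all 18 alternatives. Against 1 of 119 other ribosome biogenesis genes higher, 2 were called without composition factors and 2 without the robust option (beside 674 of 11844 tested genes). DESeq2 called 4, 1 surrogate variable 21, the GC offset 5 of 118, and the fit without the pair of libraries 7. With 1 library left out, 1 to 9 were called, the most without vehicle replicate 4. For these settings, the shares of all tested genes called higher are those given above for the members. Of 79 ribosomal protein genes, 3 were lower with 1 surrogate variable (beside 1015 of 11844 tested genes) and 0 in the other fits.

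Over all 11844 tested genes, 663 were higher and 344 lower. With 1 surrogate variable there were 1471 and 1015 (of 11844), and without the pair of libraries 1178 and 934 (of 11875). By DESeq2 there were 941 and 797 (of 13265), and with the GC offset 918 and 782 (of 11634). Leaving out 1 library gave 333 to 1133 higher and 101 to 723 lower, of 11926 to 11961 tested genes. Both counts were lowest without S1P replicate 6 and highest without vehicle replicate 4.

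Several small log2 fold changes changed sign. With 1 surrogate variable the values were 0.21 for Myc, 0.13 for Fbl, 0.10 for Rrp9, 0.12 for Nob1 and 0.082 for Bop1. Without the pair of libraries they were 0.31, 0.28, 0.11, 0.22 and 0.18 in that order. With the GC offset they were 0.15 for Myc, 0.18 for Fbl, 0.0077 for Rrp9, 0.052 for Bop1, -0.029 for Utp15 and -0.052 for Noc3l. By limma-voom they were 0.0398 for Myc and 0.0414 for Fbl. Over the fits that left out 1 library, the ranges that crossed 0 were -0.22 to 0.34 for Myc, -0.21 to 0.22 for Fbl, -0.65 to 0.29 for Rrp9, -0.19 to 0.22 for Nob1, -0.45 to 0.24 for Bop1, -0.58 to 0.0486 for Tcof1, -0.0632 to 0.57 for Nhp2, -0.0832 to 0.0693 for Gnl2, -0.0321 to 0.31 for Noc4l, -0.0363 to 0.33 for Nop2, -0.0623 to 0.15 for Polr1a, -0.0432 to 0.42 for Rrp12, -0.0057 to 0.23 for Rrp1b and -0.0632 to 0.15 for Rrs1. The cause was not tested. In the simulated counts, which held no shift shared across genes, 1.5-fold changes were recovered poorly (16%). A member that did not pass is therefore not shown to be level.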
